A study of Mus musculus with 55 samples.

Results

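The 10 glycolysis genes Hk2, Gpi1, Pfkl, Pfkp, Aldoa, Pgk1, Pgam1, Eno1, Pkm and Ldha were taken by their gene symbols from both tables of pre-mRNA levels, where each symbol occurs on a single row. They are 10 of the 9911 genes listed for CCNA-GFP cells and 10 of the 10237 listed for CTCF-AID cells. Their enzymes cover most of the path from glucose to lactate, without Gapdh and Tpi1, which are described with the rest of the pathway at the end. In CCNA-GFP cells the pre-mRNA of all 10 was higher at 60 min after release from mitosis than in mitosis, as it was for nearly all genes. In CTCF-AID cells 8 of the 10 were called higher at 60 min, near the share of all genes (84.8% −IAA, 82.2% +IAA). All 10 were then called lower at 120 than at 60 min, against 53.1% −IAA and 50.8% +IAA of all genes. At 120 min 2 of the 10 were still called higher there than in mitosis, while most genes were. Every library was also scaled to the same total, which takes out a rise shared by all genes. Counts called higher at 60 min were then 4 of 10 in CCNA-GFP, 0 of 10 in CTCF-AID −IAA and 2 of 10 in +IAA. The members' median log2 fold change was then 0.12, 0.04 and 0.03, beside 0.02, 0.06 and 0.06 over all genes. The share of all genes called at the same total is not given here, so such counts stand without a background.

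Both lines derive from E14Tg2a mouse embryonic stem (ES) cells of strain 129/Ola, kept in serum and LIF. CCNA-GFP cells express cyclin A fused to GFP, which reports the phase of the cell cycle, and CTCF-AID cells carry the architectural protein CTCF fused to a degron that auxin (IAA) engages. All synchronised cells of both lines were exposed to the CDK1 inhibitor RO-3306 (10 µM, 4 h) and then to nocodazole (50 ng/ml, 4 h), collected by shake-off and released. The +IAA cells received 0.5 mM IAA for the last 2 h of nocodazole and during release, and the −IAA cells and the CCNA-GFP cells received none. Asynchronous +IAA cells were given IAA for 4 h alongside, per the study's methods. In the CTCF-AID table the headers of the 6 asynchronous columns are misspelled, and these were assigned by the arm and the replicate number that they still show. CCNA-GFP was sampled in asynchronous and mitotic cells (3 libraries each), at 20, 30, 40, 60, 90 and 120 min (2 each) and at 50 min (1, from replicate 3), which makes 19 libraries. Each arm of CTCF-AID was sampled in asynchronous and mitotic cells (3 each) and at 20, 40, 50, 60, 90 and 120 min (2 each), which makes 36 libraries for both arms. Values come in the order of replicates 1, 2 and 3 for asynchronous and mitotic cells, 1 and 2 at 20, 40, 60 and 120 min, and 1 and 3 at 90 min. At 30 min (CCNA-GFP) and 50 min (CTCF-AID) the replicates are 1 and 3. The CTCF-AID line is a single clone, so an effect of the clone and of the fusion cannot be told apart. The degron acts on the protein, so that no pre-mRNA level can check the depletion. The study itself shows the loss of CTCF under IAA by Western blot, in interphase and in mitotic cells.

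Glycolysis splits a glucose molecule into pyruvate and captures part of its energy as ATP and NADH. Hexokinase (Hk2) traps glucose in the cell, phosphofructokinase (Pfkl, Pfkp) sets the committed step, aldolase (Aldoa) cleaves the sugar, and the later enzymes (Pgk1, Pgam1, Eno1, Pkm) turn the resulting triose phosphates into pyruvate, which lactate dehydrogenase (Ldha) can reduce to lactate. Pluripotent stem cells are known for a high glycolytic rate. Pre-mRNA still holds its introns and lasts only briefly, so its level follows ongoing transcription more closely than that of the mRNA, and it says nothing here of mRNA, protein or flux.

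The stretch before the transcription start is shown for the members with the largest rises in CCNA-GFP cells at 60 min (Pgam1, Hk2, Pgk1). It is also shown for Ldha, whose mean there was highest at 120 min, nearly level with 90 min (2.373 and 2.370 TPM). Each is the 250 bases upstream of a RefSeq start (GRCm38.p6), written 5′ to 3′ on the gene's strand, with capitals where the letters ACGTG stand on either strand (CACGT when on the other), the core of the sites that hypoxia-inducible factors are known to bind. The windows are chr19:41911621-41911870 (plus strand), chr6:82774455-82774704 (minus), chrX:106186850-106187099 (plus) and chr7:46845554-46845803 (plus).
Pgam1: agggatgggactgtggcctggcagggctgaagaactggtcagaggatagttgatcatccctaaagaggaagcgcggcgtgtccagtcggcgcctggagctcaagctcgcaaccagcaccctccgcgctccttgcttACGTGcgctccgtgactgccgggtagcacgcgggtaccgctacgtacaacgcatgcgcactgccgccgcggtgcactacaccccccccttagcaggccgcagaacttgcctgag
Hk2: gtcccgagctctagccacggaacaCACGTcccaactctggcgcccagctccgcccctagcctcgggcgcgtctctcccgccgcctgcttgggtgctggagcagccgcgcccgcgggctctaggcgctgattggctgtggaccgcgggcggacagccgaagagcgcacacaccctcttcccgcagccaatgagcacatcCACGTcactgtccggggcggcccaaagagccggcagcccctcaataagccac
Pgk1: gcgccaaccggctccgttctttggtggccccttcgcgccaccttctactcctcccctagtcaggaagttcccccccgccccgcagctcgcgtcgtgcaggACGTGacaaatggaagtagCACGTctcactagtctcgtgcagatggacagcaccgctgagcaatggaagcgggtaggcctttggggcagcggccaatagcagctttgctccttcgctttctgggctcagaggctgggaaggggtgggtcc
Ldha: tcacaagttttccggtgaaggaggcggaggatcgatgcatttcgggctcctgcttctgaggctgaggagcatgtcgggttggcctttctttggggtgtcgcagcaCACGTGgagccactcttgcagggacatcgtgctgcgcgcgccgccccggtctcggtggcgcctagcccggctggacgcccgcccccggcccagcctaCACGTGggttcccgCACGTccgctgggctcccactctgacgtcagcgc
ACGTG occurred in 7 of the 16 such windows of the 10 members, which belong to 6 genes (Hk2, Aldoa, Pgk1, Pgam1, Pkm, Ldha), against 16.57% of all 32851 windows and 22.33% of the 10763 windows of genes in these tables. Aldoa and Eno1 each have a pair of windows that overlap, so these are counted in part more than once. The longer E-box CACGTG contains ACGTG on both strands and is known as a Myc site. It occurred in 1 of 16 windows, the one shown for Ldha, against 6.021% of all windows and 8.845% of windows of listed genes. The other window of Ldha, chr7:46846832-46847081 (plus), holds neither ACGTG nor CACGTG. The GC box GGGCGG stood in 10 of 16 (32.74% of all windows, 59.53% of windows of listed genes). In the same order of shares, CCAAT stood in 8 of 16 (33.85%, 36.08%) and TATAAA in 0 of 16 (12.37%, 5.909%). These matches describe the letters in a window and show no binding.

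By the annotation (Gencode vM21, GRCm38) the members lie on 8 chromosomes. Pgam1 lies on chromosome 19 from 41911923 to 41918660, Hk2 on chromosome 6 from 82725025 to 82774454, Pgk1 on chromosome X from 106187100 to 106203699, Pkm on chromosome 9 from 59656368 to 59679375 and Eno1 on chromosome 4 from 150236721 to 150248879. Pfkl lies on chromosome 10 from 77986947 to 78010083 and Pfkp on chromosome 13 from 6579768 to 6648777. Gpi1 (34201330 to 34230336), Ldha (46841475 to 46855627) and Aldoa are all on chromosome 7. The symbol Aldoa has 2 gene records there, from 126795234 to 126800751 and from 126800790 to 126809108, and the tables do not say which the row holds. Pkm shares its strand with a transcript to be experimentally checked (TEC), Gm49759, and Hk2, Gpi1, Pfkp and Aldoa have genes on the other strand, which stranded libraries can separate. The mouse genome is known to hold processed copies of Pgk1, Pgam1, Eno1, Pkm, Ldha and Aldoa, and a retrogene of Eno1 (Eno1b), so exonic reads of these members could have been split between copies and their levels are uncertain to that extent.

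Levels are given as TPM of each gene's unspliced isoform, a measure scaled to gene length and to the library, and therefore allow levels of different genes to be compared within a library. Over all listed genes a library's TPM came to 13746.9–42575.8 in CCNA-GFP and 17701.5–43370.2 in CTCF-AID, with the lowest stage means in mitosis and at 20 min. TPM keep no read counts, so the depth and the counting error are unknown and differences were set against the spread between replicates. In bulk RNA, fewer transcribing cells and less RNA per cell cannot be told apart. Of 8 ES cell markers 7 were listed in both tables (Sox2 was not), and they summed to 28.2–107 TPM in CCNA-GFP and 38.0–121 TPM in CTCF-AID. Markers of other cells were listed for 4 of 12 genes in CCNA-GFP (1.15–7.08 TPM summed) and 7 of 12 in CTCF-AID (1.81–17.8 TPM). Their sum was highest at 60 min in both tables, with 7.20–17.8 TPM at 60 min and 2.11–4.15 TPM in mitosis in CTCF-AID −IAA, and their part in the results was not tested. Gata6, Sox17, Gata4, Sox1 and Col1a2 were listed in neither table, and Cdx2, the trophectoderm factor, was at 0 in 1 of 36 CTCF-AID libraries.

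**Figure D1:**
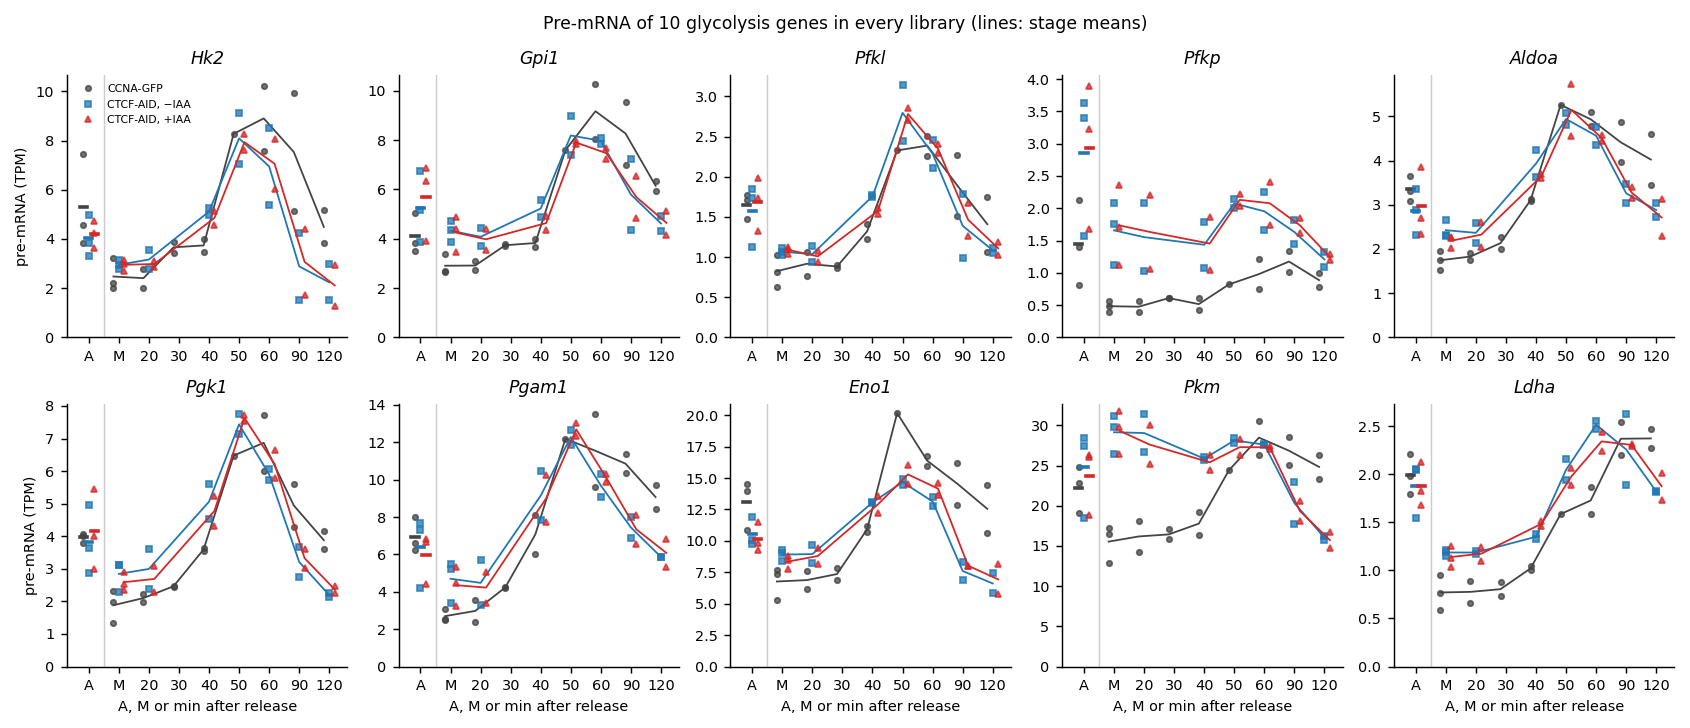
Pre-mRNA level (TPM) of each of the 10 genes in every library, against stage: A, asynchronous; M, mitotic; numbers, minutes after release. Points are libraries of CCNA-GFP (black), CTCF-AID −IAA (blue) and CTCF-AID +IAA (red), lines join stage means, and the 50 min CCNA-GFP point is a single library. Hk2 peaks at a mean of 8.90 TPM at 60 min in CCNA-GFP and 8.09 TPM at 50 min in CTCF-AID −IAA, whereas Pkm in CTCF-AID starts at 29.1 TPM in mitosis and ends at 16.0 TPM at 120 min.

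Among the upper steps, Hk2, which phosphorylates glucose, had the deepest fall of the 10 between 60 and 120 min in CCNA-GFP and in both arms of CTCF-AID. In CCNA-GFP cells it was at 2.19, 1.99 and 3.23 TPM in mitosis, 10.2 and 7.57 TPM at 60 min, 3.82 and 5.16 TPM at 120 min and 4.58, 3.82 and 7.47 TPM in asynchronous cells. In CTCF-AID −IAA cells it was at 2.94, 2.78 and 3.13 TPM in mitosis, 7.06 and 9.13 TPM at 50 min, 5.38 and 8.52 TPM at 60 min, 1.51 and 2.96 TPM at 120 min and 3.85, 3.30 and 4.98 TPM in asynchronous cells. In both lines every library at 60 min lay above every mitotic library and above every library at 120 min, and in CTCF-AID −IAA 1 of the 120 min libraries lay below all mitotic ones and the other within their range. The log2 fold change on the scale of log2(TPM + 1) was 1.70 (standard error 0.16, limma adjusted p = 4.9e-09) from mitosis to 60 min in CCNA-GFP and 1.10 (standard error 0.22, limma adjusted p = 5.9e-05) in CTCF-AID −IAA. From 60 to 120 min it was −0.85 (standard error 0.17, limma adjusted p = 0.00072) and −1.31 (standard error 0.23, limma adjusted p = 6.3e-05), respectively. Replicates stood far apart at 90 min, with 5.15 and 9.92 TPM in CCNA-GFP and 1.53 and 4.24 TPM in CTCF-AID −IAA.

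Gpi1, the isomerase that makes fructose 6-phosphate, went in CCNA-GFP from 2.65, 2.69 and 3.37 TPM in mitosis to 10.3 and 8.06 TPM at 60 min and 5.94 and 6.35 TPM at 120 min, with 3.48, 3.82 and 5.06 TPM in asynchronous cells. In CTCF-AID −IAA it was at 4.35, 3.88 and 4.74 TPM in mitosis, 7.85 and 8.08 TPM at 60 min, 4.31 and 4.92 TPM at 120 min and 5.17, 3.87 and 6.74 TPM in asynchronous cells. The 60 min libraries exceeded all mitotic ones in both lines, but at 120 min only the CCNA-GFP libraries still did, and there Gpi1 was also above every asynchronous library. Its log2 fold change at 60 min was 1.47 (limma adjusted p = 1.9e-09) in CCNA-GFP and 0.86 (limma adjusted p = 1.2e-05) in CTCF-AID −IAA. With every library scaled to the same total these became 0.33, still called, and 0.01, not called. On that scale the CCNA-GFP change from mitosis to 120 min went from 0.97 to 0.03. That of asynchronous cells against 120 min went from −0.59 to −0.11, and neither was called there.

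The phosphofructokinase genes are described together. Pfkl, the liver-type subunit, was at 0.627, 1.03 and 0.815 TPM in mitotic CCNA-GFP cells, 2.51 and 2.26 TPM at 60 min and 1.06 and 1.75 TPM at 120 min, and at 1.11, 1.03 and 1.06, then 2.11 and 2.46, then 1.05 and 1.12 TPM in CTCF-AID −IAA. Pfkp, the platelet-type subunit, had the lowest mean of the members at every CCNA-GFP stage, with 0.488, 0.399 and 0.562 TPM in mitosis, 1.22 and 0.742 TPM at 60 min, 0.991 and 0.782 TPM at 120 min and 1.39, 0.806 and 2.12 TPM in asynchronous cells. In CTCF-AID −IAA, Pfkp was at 2.09, 1.12 and 1.76 TPM in mitosis, 2.25 and 1.66 TPM at 60 min, 1.32 and 1.09 TPM at 120 min and 3.63, 1.56 and 3.40 TPM in asynchronous cells, the replicate 2 library being the lowest at each of these stages. Pfkl rose in both lines at 60 min, by 0.92 and 0.72 on the log2 scale (limma adjusted p = 1.3e-07 and 1.2e-06). At the same total in every library its change was 0.12 in CCNA-GFP and 0.12 in CTCF-AID −IAA, and neither was called. Pfkp rose by 0.51 in CCNA-GFP (limma adjusted p = 0.00013), although with every library scaled to the same total this became −0.05, and its change of 0.24 in CTCF-AID −IAA was not called (limma adjusted p = 0.10). Pfkp was the only member whose mean at no time after release reached that of asynchronous cells, in either line and in either arm.

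Of the middle steps, Aldoa, which splits fructose 1,6-bisphosphate, was at 1.53, 1.96 and 1.74 TPM in mitosis, 5.10 and 4.77 TPM at 60 min and 3.45 and 4.60 TPM at 120 min in CCNA-GFP. The CTCF-AID −IAA libraries were at 2.65, 2.32 and 2.30, then 4.77 and 4.36, then 2.72 and 3.05 TPM. Its libraries at 60 min stood clear of the mitotic and of the 120 min libraries in both lines, and at 120 min it stayed above mitosis in every library of both lines, although the change of 0.17 in CTCF-AID −IAA was not called (limma adjusted p = 0.22) and turned to −0.26 at the same total.

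Pgk1, which makes the first ATP of the pathway's later phase, was at 1.32, 2.33 and 2.00 TPM in mitotic CCNA-GFP cells, 7.72 and 6.01 TPM at 60 min, 3.60 and 4.16 TPM at 120 min and 4.00, 4.08 and 3.81 TPM in asynchronous cells. In CTCF-AID −IAA it went from 3.13, 2.29 and 3.11 TPM in mitosis to 7.12 and 7.75 TPM at 50 min and 6.07 and 5.72 TPM at 60 min, then to 2.26 and 2.12 TPM at 120 min, against 4.96, 2.87 and 3.64 TPM in asynchronous cells. Both 120 min libraries of CTCF-AID −IAA thus lay below every mitotic and every asynchronous library, whereas those of CCNA-GFP lay above every mitotic library and on both sides of the asynchronous ones, although at the same total the difference of their mean from mitosis turned to −0.06. The log2 change from 60 to 120 min was −1.11 (standard error 0.14, limma adjusted p = 1.4e-06) in CTCF-AID −IAA and −0.68 (standard error 0.15, limma adjusted p = 0.0018) in CCNA-GFP.

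Pgam1, the phosphoglycerate mutase, had the largest rise of the members in CCNA-GFP at 40 and 60 min. It was at 2.51, 2.52 and 3.06 TPM in mitosis, 4.26 and 4.21 TPM at 30 min, 8.10 and 6.04 TPM at 40 min, 13.5 and 9.58 TPM at 60 min and 8.44 and 9.70 TPM at 120 min, with 6.24, 6.59 and 8.02 TPM in asynchronous cells. Without IAA, CTCF-AID cells had Pgam1 at 5.24, 3.39 and 5.46 TPM in mitosis, 10.5 and 7.83 TPM at 40 min, 12.7 and 11.9 TPM at 50 min, 10.3 and 9.08 TPM at 60 min and 5.89 and 5.84 TPM at 120 min. Every CCNA-GFP library from 30 min on lay above every mitotic library. At 40 min its log2 fold change was 1.18 (standard error 0.15, limma adjusted p = 2.7e-06) in CCNA-GFP and 0.94 (standard error 0.15, limma adjusted p = 7.7e-06) in CTCF-AID −IAA, the largest of the 10 members in each, and in CCNA-GFP its percentile among all genes was 97.6. At 60 min the change was 1.81 and 1.02.

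Eno1, enolase, had the next highest mean after Pkm at every stage of both lines. In CCNA-GFP it was at 5.30, 7.67 and 7.34 TPM in mitosis, 20.2 TPM in the single 50 min library, 16.8 and 16.0 TPM at 60 min, 10.6 and 14.5 TPM at 120 min and 10.9, 13.98 and 14.5 TPM in asynchronous cells. Eno1 in CTCF-AID −IAA was at 9.29, 9.01 and 8.44 TPM in mitosis, 14.9 and 14.5 TPM at 50 min, 12.8 and 13.5 TPM at 60 min, 5.82 and 7.41 TPM at 120 min and 11.9, 9.75 and 10.1 TPM in asynchronous cells. The 120 min libraries were thus above all mitotic libraries in CCNA-GFP and below all of them in CTCF-AID −IAA. From mitosis to 120 min the log2 fold change was 0.86 (standard error 0.13, limma adjusted p = 6.1e-06) in CCNA-GFP, which turned to −0.20 with every library at the same total, and −0.40 (standard error 0.12, limma adjusted p = 0.0060) in CTCF-AID −IAA.

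Of the last steps, Pkm, pyruvate kinase, had the highest mean of the members at every stage of both lines. In CCNA-GFP it was at 12.9, 17.2 and 16.5 TPM in mitosis, 16.4 and 19.2 TPM at 40 min, 30.6 and 26.3 TPM at 60 min, 23.3 and 26.3 TPM at 120 min and 19.1, 22.8 and 24.8 TPM in asynchronous cells. In CTCF-AID −IAA it was at 29.8, 26.4 and 31.2 TPM in mitosis, 31.4 and 26.7 TPM at 20 min, 26.1 and 25.6 TPM at 40 min, 27.6 and 27.6 TPM at 60 min, 17.7 and 23.0 TPM at 90 min and 15.8 and 16.2 TPM at 120 min, and in asynchronous cells at 27.5, 18.5 and 28.5 TPM. In the +IAA arm the values were 31.7, 26.4 and 29.8 TPM in mitosis, 27.1 and 27.4 TPM at 60 min and 14.7 and 16.7 TPM at 120 min.

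In CCNA-GFP, Pkm therefore rose at 60 min, with no overlap with mitosis, and in CTCF-AID it started from a mitotic level above every CCNA-GFP mitotic library, stayed between 25.6 and 31.4 TPM −IAA from mitosis through 60 min and at 120 min lay below every mitotic and every asynchronous library. Its log2 fold change at 60 min was 0.88 (standard error 0.13, limma adjusted p = 2.1e-06) in CCNA-GFP, −0.01 (standard error 0.13, limma adjusted p = 0.93) in CTCF-AID −IAA and −0.04 (standard error 0.13, limma adjusted p = 0.79) in CTCF-AID +IAA. In CCNA-GFP this direction depended on the scaling, since with every library at the same total it was −0.42. From mitosis to 120 min Pkm fell in CTCF-AID −IAA by 0.76 and in +IAA by 0.80 on the log2 scale (limma adjusted p = 1.6e-05 and 8.3e-06), which put it at the 0.2 percentile of all genes in both arms. Whether both tables share a normalisation is not stated in the sources used here. The higher mitotic level of Pkm in CTCF-AID (26.4–31.2 against 12.9–17.2 TPM), and likewise that of Pfkp (1.12–2.09 against 0.399–0.562 TPM), therefore stand side by side without a test.

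Ldha, which makes lactate, had its highest mean at 120 min in CCNA-GFP, nearly level with 90 min, and at 60 min in both arms of CTCF-AID. In CCNA-GFP it was at 0.592, 0.764 and 0.956 TPM in mitosis, 1.86 and 1.59 TPM at 60 min, 2.20 and 2.54 TPM at 90 min, 2.28 and 2.47 TPM at 120 min and 1.80, 1.98 and 2.21 TPM in asynchronous cells. For Ldha in CTCF-AID −IAA the values were 1.20, 1.15 and 1.22 TPM in mitosis, 2.47 and 2.56 TPM at 60 min, 1.88 and 2.63 TPM at 90 min and 1.83 and 1.82 TPM at 120 min. Every CCNA-GFP library at 90 and 120 min lay above both 60 min libraries, and in CTCF-AID −IAA both 120 min libraries lay below both 60 min ones but above all mitotic ones. Ldha was the only member called higher at 120 than at 60 min in CCNA-GFP, with a log2 change of 0.31 (standard error 0.10, limma adjusted p = 0.019). That call was lost without the replicate block and without replicate 1 or 2. In CTCF-AID −IAA it was called lower, with −0.32 (standard error 0.09, limma adjusted p = 0.0053), a call lost without replicate 1 or 2 and with every library at the same total. The difference between the lines was not tested.

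The calls of the members were counted beside those of all genes. In CCNA-GFP none was called at 20 or 30 min by limma (adjusted p under 0.05), where 0% and 0.303% of all genes were called higher, and at an unadjusted p under 0.05 there were 0 members at 20 min and 1, Pgam1, at 30 min. At 40 min 8 of 10 were called higher, all but Pfkp and Pkm, against 49.3% of all genes. At 60, 90 and 120 min all 10 were called higher, against 88.3%, 89.1% and 90.2% of all genes, which is a share near that background. No member was called lower than mitosis at 40, 60, 90 or 120 min, against 0.0404%, 0.515%, 0.948% and 0.656% of all genes. The medians of their log2 fold changes at 40, 60, 90 and 120 min were 0.51, 1.19, 1.01 and 0.86, beside 0.26, 0.79, 0.73 and 0.68 over all genes. In mean TPM, Pfkp, Pfkl and Ldha stood at the 25.4, 44.6 and 45.4 percentile of all genes here. The other members stood at 76.1 (Aldoa) to 99.8 (Pkm). Changes of low genes are understated on log2(TPM + 1), and what this adds to the gap between the medians was not tested. All 10 were also called higher in asynchronous than in mitotic cells, against 70.4% of all genes, and 0 of 10 lower, against 1.97%, with a median of 0.72 beside 0.33. In the single library at 50 min Eno1, Pgam1 and Aldoa were at their highest stage mean, and no call was made there.

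In CTCF-AID cells none was called at 20 min in either arm (0% of all genes, and 0 members at an unadjusted p under 0.05). At 40 min 6 of 10 were called higher −IAA and 7 of 10 +IAA, against 63.3% and 58.7% of all genes. At 50 and 60 min 8 of 10 were called higher in both arms, all but Pfkp and Pkm, against 79.1% and 84.8% of all genes −IAA and 78.2% and 82.2% +IAA. No member was called lower at 40, 50 or 60 min, against 3.21%, 4.56% and 2.7% of all genes −IAA and 3.87%, 5.37% and 4.04% +IAA. At 90 min the number was 3 of 10 in both arms (Aldoa, Pgam1 and Ldha), against 74.8% and 73.8% of all genes, and Pkm was called lower, as were 3.37% and 4.41% of all genes. At 120 min it was 2 of 10 in both arms, Pgam1 and Ldha, against 69.6% −IAA and 68.2% +IAA. Lower than in mitosis at 120 min were Eno1 and Pkm −IAA (2 of 10, against 3.15% of all genes) and Pkm +IAA (1 of 10, against 4.42%). The members' median log2 fold change at 120 min was −0.05 −IAA and 0.01 +IAA, beside 0.34 and 0.35 over all genes, and 8 of 10 members lay under that median in both arms. At 60 min their median had been 0.71 and 0.76, beside 0.63 over all genes in both arms. In asynchronous cells 5 of 10 were called higher than in mitosis −IAA, against 34.3% of all genes, and 0 of 10 lower, against 5.25%. In +IAA 7 of 10 were called higher, against 40.9%, and Pkm was called lower (1 of 10, against 5.89%).

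**Figure D2:**
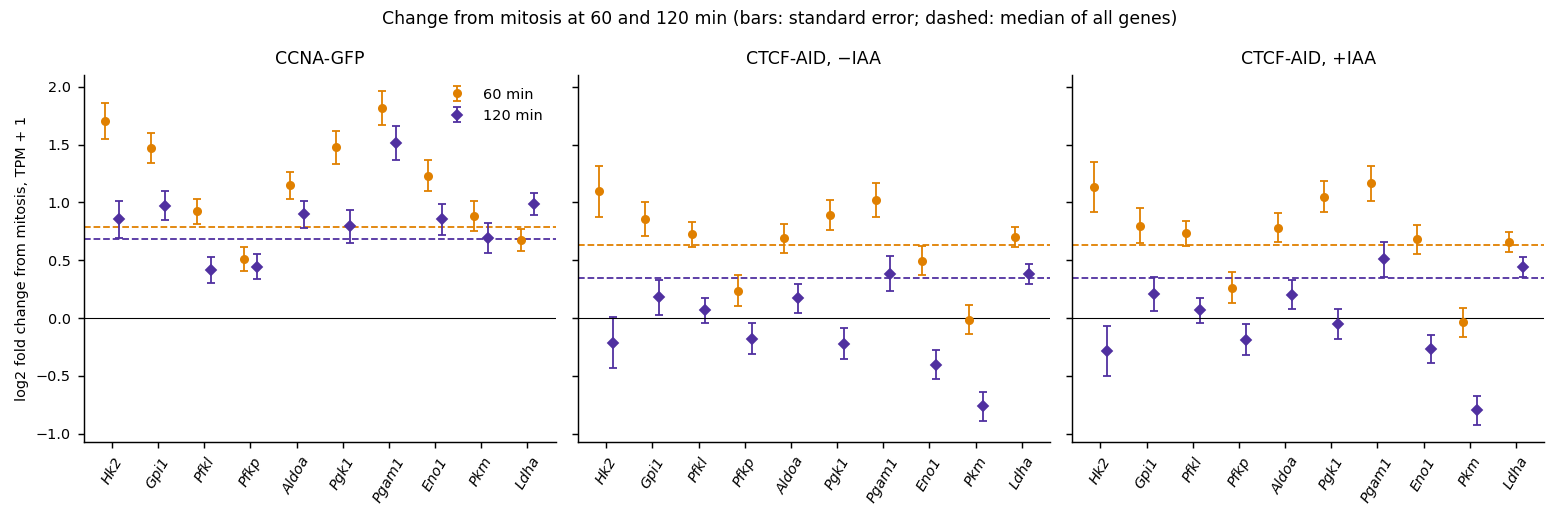
Log2 fold change from mitosis, on log2(TPM + 1), of each member at 60 min (orange) and 120 min (purple), in CCNA-GFP and in both arms of CTCF-AID, with standard errors as bars and the median over all genes as dashed lines. At 120 min all 10 members are above 0 in CCNA-GFP, while in CTCF-AID −IAA they run from −0.76 (Pkm) to 0.38 (Pgam1, Ldha); with every library at the same total, 6 of the 10 in CCNA-GFP turn below 0 at 120 min, and so do 4 in CTCF-AID −IAA and 3 in +IAA, and at 60 min 4, 3 and 3 do.

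Between 60 and 120 min the members fell in CTCF-AID. All 10 members were called lower at 120 than at 60 min in both arms, against 53.1% of all genes −IAA and 50.8% +IAA, and none higher, against 7.31% and 7.61%. No library at 120 min reached a 60 min library for any of the 10 (61.2% and 57.6% of all genes had no such overlap). The median log2 change was −0.67 and −0.66, beside −0.27 and −0.25 over all genes, with Hk2 (−1.31 and −1.42), Pgk1 (−1.11 and −1.10) and Eno1 (−0.90 and −0.95) furthest down and Ldha (−0.32 and −0.22) least. On the TPM scale the mean at 120 min was 0.322 to 0.724 of that at 60 min −IAA and 0.299 to 0.801 +IAA. In CCNA-GFP 5 of 10 were called lower (Hk2, Gpi1, Pfkl, Pgk1 and Eno1), against 28.5% of all genes, and 1 was called higher (Ldha), against 9.6%. Without the replicate block 2 of 10 were called lower there, and without replicate 1, which leaves a single library at each time, 0. The median was −0.34 in CCNA-GFP beside −0.11 over all genes. Most members had a higher mean TPM than most genes in CTCF-AID too. Pfkl, Ldha and Pfkp stood there at the 43.0, 46.5 and 49.8 percentile and the others at 72.3 (Aldoa) to 99.8 (Pkm). What this level adds to the gaps between medians on log2(TPM + 1) was not tested. With every library at the same total, 4 of 10 in CCNA-GFP and 7 of 10 in each CTCF-AID arm were called lower. The share of all genes called at that setting is not given here, so these counts stand without a background. On that scale the sign of Ldha turned in +IAA, to 0.05. The members' median was then −0.15 in CCNA-GFP, −0.34 −IAA and −0.34 +IAA, beside 0.02, −0.008 and −0.003 over all genes.

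The comparison of asynchronous cells with 120 min asks how near the members were to their level in cycling cells. In CTCF-AID −IAA 5 of 10 members were called higher in asynchronous cells (Pfkp 0.69, Eno1 0.62, Hk2 0.55, Pgk1 0.53 and Pkm 0.52 on the log2 scale), against 7.25% of all genes, and 0 of 10 lower, against 51%. In +IAA 6 of 10 were called higher, Pfkl (0.29) beside the same 5 genes, against 8.43%, and 0 of 10 lower, against 47.2%. The median over the members was 0.38 and 0.39, beside −0.23 and −0.20 over all genes, and all 10 members lay above the median of all genes in both arms. In 6 of 10 members every asynchronous library was above every 120 min library in each arm, which held for 7.73% and 9.22% of all genes. Without replicate 1, 3 of 10 −IAA and 1 of 10 +IAA were called. In CCNA-GFP 1 of 10 was called higher in asynchronous cells (Pfkp, against 5.86%) and 3 of 10 lower (Gpi1, Pgam1 and Ldha, against 63.4%), and without the replicate block 1 of 10 was called in all. With the same total 7 of 10 were called higher in CCNA-GFP, 10 of 10 in CTCF-AID −IAA and 9 of 10 in +IAA. On that scale 0 were called lower, and the share of all genes called is not given. The members' median was then 0.37, 0.66 and 0.68, beside −0.02, 0.003 and 0.01 over all genes. Pgam1 and Ldha, called lower in CCNA-GFP before, changed sign to 0.08 and 0.14. Hk2, Aldoa and Pkm in CCNA-GFP and 2 members in each CTCF-AID arm, none of them called before, changed sign as well.

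The summed TPM itself moved between stages. Setting every library to the same total shifted the median log2 fold change of all genes at 60 min from 0.79 to 0.02 in CCNA-GFP, from 0.63 to 0.06 in CTCF-AID −IAA and from 0.63 to 0.06 in +IAA. On that scale 4 of 10 members were called higher and 1 lower (Pkm) at 60 min in CCNA-GFP, 0 higher and 3 lower (Pfkp, Eno1 and Pkm) in CTCF-AID −IAA, and 2 higher (Pgk1, Pgam1) and the same 3 lower in +IAA. At 120 min 2 were called higher (Pgam1, Ldha) and 3 lower (Pfkl, Eno1, Pkm) in CCNA-GFP. In each CTCF-AID arm 8 of 10 were called lower at 120 min, all but Pgam1 and Ldha, with 0 higher. The members' median there was −0.03 in CCNA-GFP, −0.43 −IAA and −0.39 +IAA, beside 0.03 over all genes in each. The shares of all genes called on that scale are not given here. Pgam1 was the member furthest above the median of all genes at 60 min in CCNA-GFP and +IAA, by 1.02 and 0.53 on the log2 scale, and Hk2 was in −IAA, by 0.46.

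**Figure D3:**
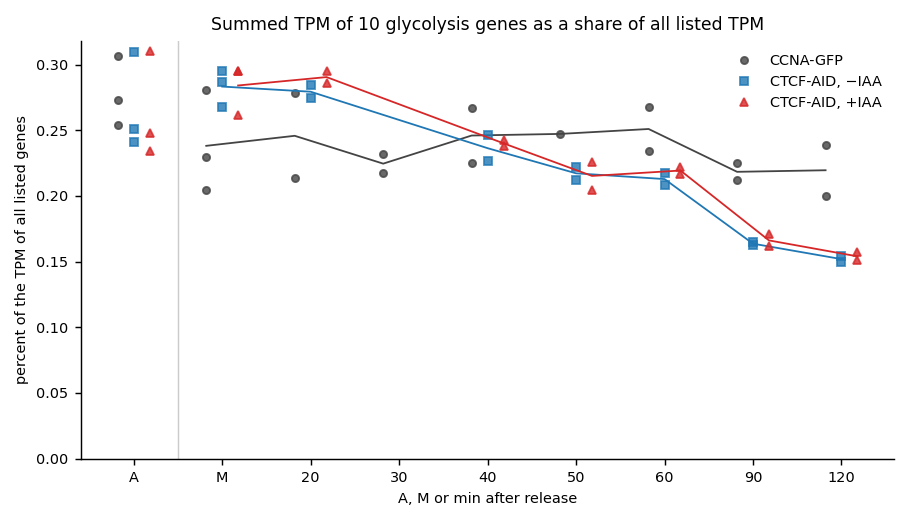
Summed TPM of the 10 members as a percentage of the summed TPM of all listed genes, per library, against stage (A, asynchronous; M, mitotic; numbers, minutes after release), with lines through stage means. In CTCF-AID −IAA the share goes from 0.268–0.295% in mitosis to 0.149–0.154% at 120 min and is 0.241–0.309% in asynchronous cells. In CCNA-GFP it lies between 0.2001% and 0.281% from mitosis on, and the replicates differ in level. Within replicates it goes there from 0.205% in mitosis to 0.2001% at 120 min (replicate 1) and from 0.281% to 0.239% (replicate 2).

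As a share of all listed pre-mRNA, the 10 members together made up 0.205–0.281% in mitotic CCNA-GFP cells, 0.234–0.268% at 60 min, 0.2001–0.239% at 120 min and 0.254–0.306% in asynchronous cells. In CTCF-AID −IAA the share was 0.268–0.295% in mitosis, 0.208–0.218% at 60 min, 0.149–0.154% at 120 min and 0.241–0.309% in asynchronous cells, and in +IAA it was 0.262–0.295%, 0.217–0.222%, 0.151–0.157% and 0.234–0.310%. In both arms every 120 min library lay below every library of the other stages, with those at 90 min next at 0.163–0.165% −IAA and 0.162–0.171% +IAA. Pkm and Eno1 are the largest terms of this sum. In order of level, Pkm stood above Eno1 and Eno1 above the rest in mitotic CCNA-GFP cells, without overlapping libraries. Gpi1, Pgam1, Hk2, Pgk1 and Aldoa followed with overlapping neighbours, then Pfkl and Ldha, which also overlapped, and Pfkp was last.

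IAA, given to deplete CTCF in the CTCF-AID line, was compared with no IAA at each of 8 stages. Of the 80 comparisons of a member at a stage, 0 were called by limma (adjusted p under 0.1 and absolute log2 fold change over 0.2) and 0 had an unadjusted p under 0.05. Among all genes 0% were called in mitosis, at 20 min and at 40 min, and at most 0.313% higher and 0.694% lower, in asynchronous cells. The widest difference was that of Gpi1 at 40 min, −0.14 on the log2 scale, from 5.56 and 4.88 TPM −IAA and 4.91 and 4.35 TPM +IAA. For Hk2 the libraries at 60 min were at 5.38 and 8.52 TPM −IAA and 6.04 and 8.08 TPM +IAA, and for Eno1 at 12.8 and 13.5 and 13.7 and 14.6 TPM. The arms overlapped for Gpi1 and Hk2, and for Eno1 both +IAA libraries lay above both −IAA libraries. Within replicates, Gpi1 at 40 min was lower +IAA in 2 of 2, Hk2 at 60 min higher in 1 of 2 and Eno1 at 60 min higher in 2 of 2. Of the 80 comparisons 12 were higher +IAA in every replicate, 19 lower in every replicate and 49 in both directions. These directions were not counted over all genes, so no lean of the members is read from them. The median difference over all genes ran from −0.06 at 20 min to 0.01 in asynchronous cells. With the replicate number as a block, which pairs the arms, 0 of the 80 were called and 0 had an unadjusted p under 0.05, while in asynchronous cells 0.899% of all genes were called higher and 1.53% lower. All 80 differences lay between −0.14 and 0.10, and their 95% intervals (without the block) ran from −0.69 at the lowest to 0.69 at the highest, so that a difference of 1 or more on the log2 scale lay outside all 80 intervals, and one of 0.5 or more outside 54 of them (74 with the block). The rise from mitosis to 60 min gave no call between the arms (0 of 10 members, interaction in limma, against 0.0195% higher and 0.137% lower of all genes, and 0 at an unadjusted p under 0.05), the widest being Eno1 at 0.19 with a 95% interval from −0.17 to 0.54.

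**Figure D4:**
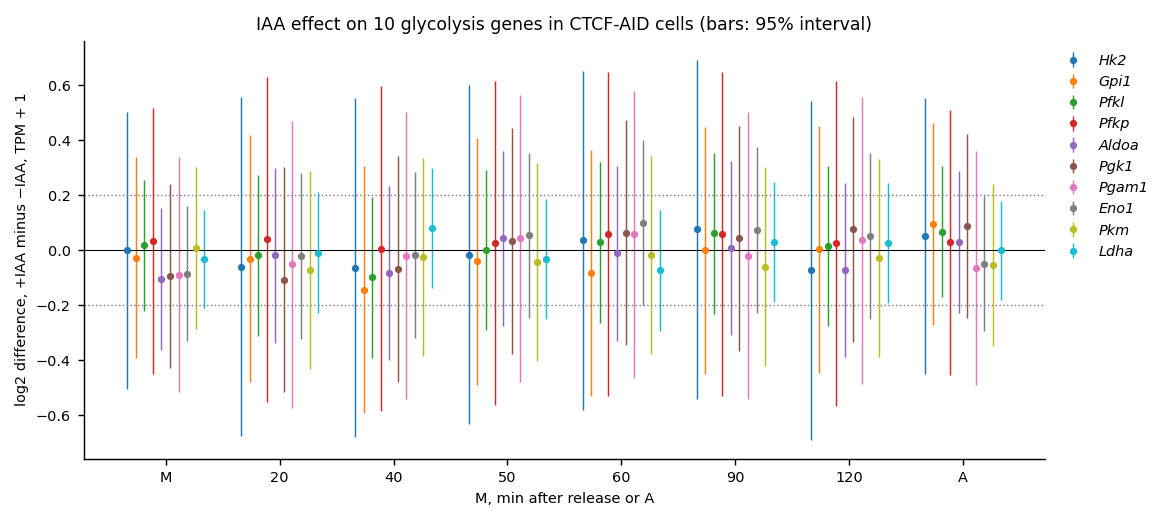
Log2 difference between +IAA and −IAA CTCF-AID cells, on log2(TPM + 1), for each member (colours) at each stage (M, mitotic; minutes after release; A, asynchronous), with 95% intervals as bars and dotted lines at 0.2 above and below 0. All 80 points lie between −0.14 and 0.10, and every interval includes 0.

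The rest of the pathway was followed through lists of other enzymes of the path, transporters, regulators and the pentose phosphate branch. Of 18 other enzymes and isoforms 8 were listed in CCNA-GFP and 10 in CTCF-AID, and 8 of 8, 9 of 10 −IAA and 8 of 10 +IAA were called higher at 60 min. At 120 min in CTCF-AID −IAA 7 of these 10 enzymes were called higher than mitosis and 0 lower, against 69.6% and 3.15% of all genes. Their median log2 fold change was 0.29 beside 0.34 over all genes. Gapdh, the dehydrogenase between aldolase and Pgk1, was at 0.434 ± 0.0921 TPM in mitosis and 2.67 ± 0.372 TPM at 60 min in CCNA-GFP (SD, n = 3 and 2), and its log2 fold change at 120 min was 0.56 (standard error 0.20, limma adjusted p = 0.016) in CTCF-AID −IAA. Tpi1, the triose phosphate isomerase, went from 1.23 ± 0.270 TPM in mitosis to 3.58 ± 1.92 TPM at 60 min and 1.32 ± 0.153 TPM at 120 min in CTCF-AID −IAA (SD, n = 3, 2 and 2), with a log2 change of −0.92 from 60 to 120 min (limma adjusted p = 0.00075). Ldhb, the other lactate dehydrogenase subunit, had a log2 fold change at 60 min of 1.85 in CCNA-GFP and 1.73 in CTCF-AID −IAA, and of 0.87 at 120 min in the latter (limma adjusted p = 2.5e-07). Hk1 was listed in CTCF-AID only (0.60 at 60 min, limma adjusted p = 2.7e-09) and Pfkm in neither table.

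All 7 transporters of glucose, lactate and pyruvate were called higher at 60 min in CCNA-GFP and in both arms of CTCF-AID. In CCNA-GFP the largest were Mpc2 (2.21) and Mpc1 (1.87), subunits of the mitochondrial pyruvate carrier, and the lactate transporter Slc16a1 (1.94). The glucose transporters Slc2a1 and Slc2a3 rose by 1.22 and 1.00 in CCNA-GFP and by 0.97 and 0.51 in CTCF-AID −IAA. At 120 min 4 of 7 transporters were called higher than mitosis in CTCF-AID −IAA and 3 of 7 in +IAA, against 69.6% and 68.2% of all genes. In each arm 5 of 7 were called lower than at 60 min, against 53.1% and 50.8% of all genes. Of 19 regulators 15 were listed in each table, of which 15 in CCNA-GFP, 15 in −IAA and 14 in +IAA were called higher at 60 min. Tigar, a fructose bisphosphatase that opposes glycolysis (1.75), the pyruvate dehydrogenase subunit Pdhb (1.71) and its E1 partner Pdha1 (1.23) led them in CCNA-GFP. At 120 min 11 of 15 were called higher than mitosis in each CTCF-AID arm, against the same 69.6% and 68.2% of all genes. All 7 pentose phosphate genes rose at 60 min in CCNA-GFP and −IAA, and 6 of 7 in +IAA, led in CCNA-GFP by Taldo1 (1.58), Rpia (1.25) and G6pdx (1.21), the enzyme that opens the branch. In none of these lists was a gene called between +IAA and −IAA at any stage by limma. The counts of each list at 60 min stand near the share of all genes called then, 88.3% in CCNA-GFP, 84.8% −IAA and 82.2% +IAA, and they were not computed at the same total.

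The genes whose mean log2(TPM + 1) per stage was most like the mean of the members' standardised profiles were sought among the 6799 other genes that averaged 1 TPM or more in CCNA-GFP. Over the 9 stages the highest Pearson correlations were those of Zfp932 (0.996), N4bp3 (0.996), Fam76b (0.995), Zcchc9 (0.995) and Zfp229 (0.995). Over the 8 stages of CTCF-AID −IAA the same genes had correlations of 0.861, 0.845, 0.802, 0.873 and 0.729 with the members' average there. All stages share their libraries between genes, and the stages of a replicate share their culture, so these values are descriptions. Among the members themselves, the correlation with the average ran from 0.787 (Pfkp) to 0.983 (Aldoa) in CCNA-GFP and from 0.449 (Pkm) to 0.987 (Pfkl) in CTCF-AID −IAA, the averages including the members.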

How the data were processed

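Per the study's methods, the authors depleted ribosomal RNA, made stranded paired-end libraries, mapped the reads by STAR (mm10) and estimated abundances by RSEM, using Gencode vM12 extended by 1 unspliced isoform per gene. The deposited values are TPM of that isoform, for genes with a mean TPM over 0.5 in asynchronous cells or in several post-mitotic samples. Low values of each library are multiples of a step that differs between libraries (2.17–3.81 times 0.01 TPM in CCNA-GFP, 1.84–2.80 in CTCF-AID), so a factor per library that the sources used here do not name was applied, and TPM may not be comparable between libraries beyond it.

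The tables of CCNA-GFP and CTCF-AID were analysed separately with limma 3.58.1 (R 4.3.3, lmFit and eBayes with trend) on log2(TPM + 1), with Benjamini-Hochberg adjustment over all genes of a table. Fold changes are on that scale, which understates changes of low genes. Stage contrasts and interactions had the replicate number as a block and were called at an adjusted p under 0.05, and +IAA against −IAA had no block and was called at an adjusted p under 0.1 with an absolute log2 fold change over 0.2. Replicate numbers paired the samples, since deviations of same-numbered libraries correlated in 20 of 20 pairs of groups in CCNA-GFP (0.165–0.799) and in 88 of 88 in CTCF-AID (0.211–0.815). The study's methods call the replicates independent. The script was run on simulated data with independent libraries and few changed genes. Such data cannot check the replicate block or a change shared by most genes. All 10 genes were named, and of the other lists Gapdh, Tpi1, Slc2a1, Slc2a3, Hk1, Ldhb, Pfkm, G6pdx and the 3 largest rises per list at 60 min in CCNA-GFP. Members and lists were chosen with earlier results of these data known. Alternatives were another pseudocount (0.1), a minimum mean of 1 TPM, a common total, division by the step, the block, and leaving out each replicate.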

Additional observations from a re-analysis of the deposited data

How the results depend on the processing

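For 120 log2 fold changes of members (60 and 120 min against mitosis, 120 against 60 min, and asynchronous cells against 120 min, in CCNA-GFP and both CTCF-AID arms), the alternatives gave 956 values, of which 766 kept their direction and their side of the threshold. A further 37 changed sign while called in neither fit (2 at the same total, 8 after division by the step, 2 without the block, and 15, 6 and 4 without replicate 1, 2 and 3). The 32 changes of direction that involved a call all came with every library at the same total. In CCNA-GFP these were, at 60 min against mitosis, Pfkp (−0.055), Eno1 (−0.012), Pkm (−0.42) and Ldha (−0.049), at 120 min against mitosis Hk2 (−0.039), Pfkl (−0.19), Pfkp (−0.024), Pgk1 (−0.060), Eno1 (−0.20) and Pkm (−0.42), and in asynchronous cells against 120 min Hk2 (0.41), Aldoa (0.20), Pgam1 (0.084), Pkm (0.34) and Ldha (0.14). In CTCF-AID −IAA they were Pfkp (−0.39), Aldoa (−0.068) and Eno1 (−0.41) at 60 min, Gpi1 (−0.31), Pfkl (−0.26), Aldoa (−0.26) and Pgam1 (−0.10) at 120 min, and Aldoa (0.29) and Pgam1 (0.31) in asynchronous cells against 120 min. In +IAA they were Gpi1 (−0.043), Pfkp (−0.38) and Eno1 (−0.23) at 60 min, Gpi1 (−0.29), Pfkl (−0.28) and Aldoa (−0.24) at 120 min, and Ldha at 120 against 60 min (0.047) and in asynchronous cells against 120 min (0.23). The 2 without a call were Pfkp in CCNA-GFP at 120 against 60 min (0.031) and Pgam1 in +IAA asynchronous cells against 120 min (0.19). This scaling removes a change shared by all genes by its construction.

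With the same total, calls above mitosis over all stages went from 48 to 19 in CCNA-GFP, from 32 to 9 in CTCF-AID −IAA and from 35 to 12 in +IAA, and at 60 min from 10 to 4, from 8 to 0 and from 8 to 2. Calls between asynchronous cells and 120 min went in CCNA-GFP from 4 (1 higher and 3 lower in asynchronous cells) to 7 (all higher). They went from 5 to 10 in −IAA and from 6 to 9 in +IAA, all of them higher in asynchronous cells. In CCNA-GFP those 4 became 2 with a pseudocount of 0.1, 2 with a mean of at least 1 TPM (which leaves out Pfkp) and 1 after division by the step, and the 5 calls lower at 120 than at 60 min became 3 after that division. The cause was not tested.

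Without the replicate block, members called lower at 120 than at 60 min went from 5 to 2 in CCNA-GFP and from 10 to 8 in each CTCF-AID arm, those called between asynchronous cells and 120 min from 4 to 1 in CCNA-GFP, from 5 to 4 in −IAA and from 6 to 5 in +IAA, and calls above mitosis from 48 to 42, from 32 to 25 and from 35 to 27. Calls at 60 min stayed at 10, 8 and 8, and the effect of IAA with the block and the interaction without it at 0.

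Leaving out 1 replicate gave 0–6 members lower at 120 than at 60 min in CCNA-GFP (0 without replicate 1), 8–10 in −IAA and 7–10 in +IAA. Calls between asynchronous cells and 120 min were 2–2 in CCNA-GFP, 3–5 in −IAA (3 without replicate 1) and 1–7 in +IAA (1 without replicate 1). Calls above mitosis ranged over 44–46, 25–35 and 29–37. Where 1 library was left at a stage, it was assumed to vary like the other groups.

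TPM without counts leave the depth unknown, and 2 libraries at most stages limit what each contrast can show. Whether the lines share a normalisation is not stated.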
